A study of Mus musculus with 18 samples.

Results

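The genes described here are 43 that act in mitosis: the cyclins and kinases that start it, the proteins of the spindle, the centromere and the kinetochore, and those that separate the chromosomes and the daughter cells. They are a list of known mitotic genes given by name; no measured value enters the rule, although the list was drawn up with earlier results of these data known. All 43 were among the 24376 genes of the deposited count table, and all 43 passed the filter on low counts that left 17269 genes for testing. They are described in 9 groups by role.

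A dividing cell makes most of these transcripts late in its cycle, once its DNA is copied, and destroys many of the proteins again as it leaves mitosis. Their shared expression is known to depend on short promoter elements read by the MuvB complex, which works as the repressor DREAM in resting cells and with B-Myb and FoxM1 in dividing ones. In the mouse embryo the mammary bud is known for little cell division after it forms, and growth resumes when the bud sprouts into the fat pad. β-catenin carries the canonical Wnt signal, which the mammary placode and bud need.

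RNA was sequenced from mammary epithelium that had been dissected by hand from buds 1-3, and each library pooled the tissue of 2 to 3 embryos of the same litter and genotype. The stabilized group carried Krt14Cre and 1 Ctnnb1 allele with loxP sites around exon 3, so that Cre, driven by the keratin 14 promoter in epithelial cells, leaves a β-catenin without the part that marks it for destruction; the other allele was wild type. Controls were littermates that carried the same flanked allele and no Cre, so effects of Cre itself and of the stabilized protein cannot be told apart. All embryos were a mix of C57Bl/6 and NMRI. Stages are embryonic days, written E13.5 and E16.5. The earlier stage had 4 control and 4 stabilized libraries that mixed males and females, and the later one 5 of each, made from females only, so stage and sex cannot be told apart.

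The libraries held 26768810 to 36922108 estimated counts each, and the lowest count of any of the 43 genes in any library was 77, for Ttk. Levels are given in CPM, the usual scaling of counts to library size, here with TMM factors. Of the 7 epithelial markers, all 7 averaged above 1 CPM in every group. Their sums per library were 2547 to 3096 CPM in E13.5 controls and 2527 to 3296 CPM in E13.5 stabilized libraries. At E16.5 the sums did not overlap, at 2278 to 2556 CPM in controls and 3542 to 6629 CPM in stabilized libraries. By the test described below, 3 of the 7 were higher and 3 lower in stabilized libraries at E16.5, against 22.2% and 19.4% of all tested genes. Ctnnb1 itself lay at 2421 to 3156 CPM in E13.5 controls and 2758 to 3496 CPM in E13.5 stabilized libraries, and at 1112 to 1395 CPM and 1693 to 3211 CPM at E16.5. A count over the whole gene does not show the loss of exon 3, so it does not check the genotype labels. Krt14, whose promoter drives Cre, lay at 721 to 958 CPM in E13.5 controls and 264 to 416 CPM in E13.5 stabilized libraries. At E16.5 the Krt14 ranges overlapped, at 565 to 725 CPM in controls and 307 to 929 CPM in stabilized libraries. Mesenchymal markers summed to 359 to 1252 CPM over all libraries, and markers of endothelium, immune cells, muscle and red blood cells to at most 28.5 CPM each. Tissue is a mixture of cells in each library, so fewer dividing cells and less RNA per dividing cell cannot be told apart for any result below.

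Promoter windows, 250 bases before to 50 after the transcript start, were found in RefSeq (GRCm38.p6) for 35 of the 43 genes, with 37 windows in all. The cell cycle genes homology region, the element bound by MuvB, was searched as TTTGAA on both strands, and its variant as TTCGAA, which is its own reverse complement. The CCAAT box, bound by NF-Y, was searched as CCAAT on both strands. A match to one of these elements can share its last base with a match to the other. Shown here are the promoters of the 4 genes with the smallest adjusted p for the genotype effect at E13.5 among those that hold TTTGAA. The RefSeq starts used for Kif2c and Cdca8 lie inside these genes as annotated in GENCODE M21, where both extend further upstream. Their windows are thus not those before the GENCODE gene ends. Capitals mark any of these 3 elements on either strand, and each sequence is written in the direction of transcription.
Bub1b, chr2:118597961-118598210, plus strand, the 250 bases before the start: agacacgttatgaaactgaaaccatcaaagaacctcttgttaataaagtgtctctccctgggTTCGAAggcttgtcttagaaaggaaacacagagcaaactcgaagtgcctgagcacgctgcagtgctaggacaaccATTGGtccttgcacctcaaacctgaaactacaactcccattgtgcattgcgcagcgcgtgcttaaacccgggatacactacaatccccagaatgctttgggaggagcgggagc
Bub1b, chr2:118598231-118598260, plus strand, bases 20 to 49 after the start: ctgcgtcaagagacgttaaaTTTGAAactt
Top2a, chr11:99024190-99024439, minus strand, the 250 bases before the start: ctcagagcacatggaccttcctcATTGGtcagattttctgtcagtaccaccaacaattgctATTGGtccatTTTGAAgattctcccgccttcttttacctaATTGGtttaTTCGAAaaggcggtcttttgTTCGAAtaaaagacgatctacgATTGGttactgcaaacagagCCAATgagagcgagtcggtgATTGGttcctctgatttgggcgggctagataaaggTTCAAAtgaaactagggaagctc
Kif2c, chr4:117178773-117179022, minus strand, the 250 bases before the start: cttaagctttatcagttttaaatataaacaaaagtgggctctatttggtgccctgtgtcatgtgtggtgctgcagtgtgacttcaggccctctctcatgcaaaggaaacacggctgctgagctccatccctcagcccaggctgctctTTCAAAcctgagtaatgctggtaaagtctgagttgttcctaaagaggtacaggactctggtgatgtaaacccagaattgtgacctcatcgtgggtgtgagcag
Aurka, chr2:172370571-172370820, minus strand, the 250 bases before the start: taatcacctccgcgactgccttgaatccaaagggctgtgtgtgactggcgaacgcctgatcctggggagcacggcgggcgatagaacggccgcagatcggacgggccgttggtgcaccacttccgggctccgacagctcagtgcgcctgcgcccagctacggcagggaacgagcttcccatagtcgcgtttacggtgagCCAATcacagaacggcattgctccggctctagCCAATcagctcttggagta
Aurka, chr2:172370521-172370550, minus strand, bases 20 to 49 after the start: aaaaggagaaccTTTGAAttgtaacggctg

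TTTGAA stood in the window of 27 of the 35 genes (77.1%) and in 17.9% of all 32851 windows of the same length. CCAAT stood in 27 of the 35 (77.1%) and in 37.4% of all windows, and at least 2 copies stood in 18 of them (51.4%) against 11.7%. Both elements occurred together in 24 of the 35 genes (68.6%) and in 6.95% of all windows. Near the start, from 40 bases before to 50 after it, TTTGAA was found in 24 genes (68.6%) and in 4.39% of all windows. Of the 67 CCAAT matches, 34 lay 120 to 41 bases before the start, upstream of most TTTGAA matches, 27 of 37 of which lay from 40 before to 49 after it. Neighbouring CCAAT boxes 31 to 34 bases apart, as in the Aurka promoter above, were found in 8 genes (22.9%), namely Aurka, Ccnb1, Ccnb2, Cdca8, Cdk1, Hmmr, Spc25 and Ube2c, and in 1.15% of all windows. Of the genes with a window, TTTGAA was not found in those of Birc5, Bub1, Ccnb1, Cenpe, Mad2l1, Nuf2, Nusap1 and Pttg1, of which Bub1 held TTCGAA. These matches describe letters in a window and say nothing of binding.

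**Figure D1:**
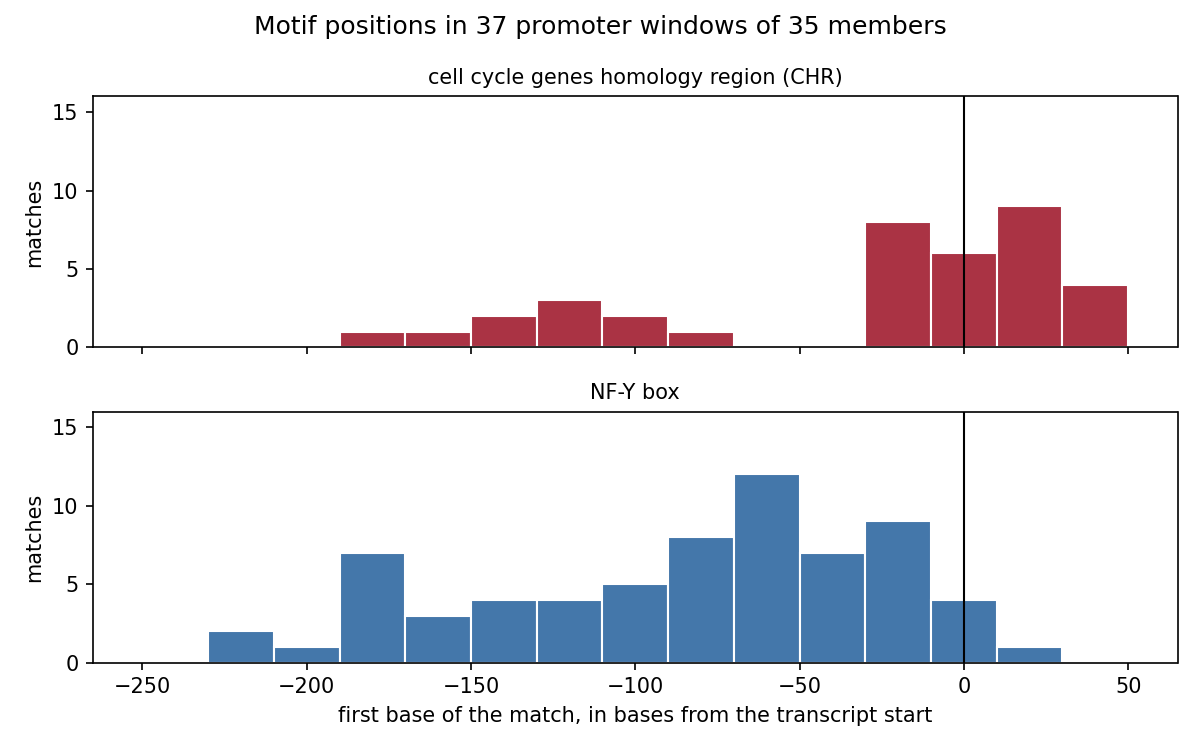
Number of matches (vertical axis) to the cell cycle genes homology region (upper panel, 37 matches) and to the NF-Y box (lower panel, 67 matches) by the first base of the match relative to the transcript start (horizontal axis, in bases, bins of 20), in the 37 promoter windows of 35 mitotic genes. Of the homology region matches, 27 lie within the last 40 bases before the start or the 49 after it, while 34 NF-Y box matches lie 120 to 41 bases before it.

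These genes differed between the genotypes in opposite directions at the 2 stages. At E13.5, 40 of the 43 were higher in stabilized than in control libraries and 0 were lower (edgeR quasi-likelihood test, Benjamini-Hochberg adjusted over all 17269 genes, threshold 0.05), against 9.58% of all tested genes called higher and 5.29% lower. None was lower at an unadjusted p under 0.05 or with DESeq2 either, both counts being 0. The median log2 difference over the 43 was 1.38, a 2.61-fold higher level, beside 0.01 over all tested genes. At E16.5, 34 were lower in stabilized libraries and 1, Spc24, was higher, against 19.4% and 22.2% of all tested genes; the median was -0.80, a 1.74-fold lower level, beside 0.10 over all. The test of the difference between the 2 effects called 41 genes, each with a lower effect at E16.5 than at E13.5, and 1, Spc24, with a higher one, against 16.6% and 15.6% of all tested genes. Its median was -2.09.

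In controls the same genes rose from E13.5 to E16.5: 42 of 43 were higher at E16.5 and 1, Spc24, was lower, against 24.9% and 22.6% of all tested genes, with a median of 2.53 or 5.79-fold. In stabilized embryos 17 were higher at E16.5 and 0 were lower, against 2852 higher and 1990 lower of all tested genes, together 28%, with a median of 0.42 or 1.34-fold. The count of 17 fell to 10 when the E13.5 stabilized library 2 was left out. With unadjusted p-values under 0.05 again 0 were lower, and DESeq2 also called 0. These comparisons share their control and stabilized libraries with the genotype comparisons, so the values are given side by side and are not independent of each other.

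**Figure D2:**
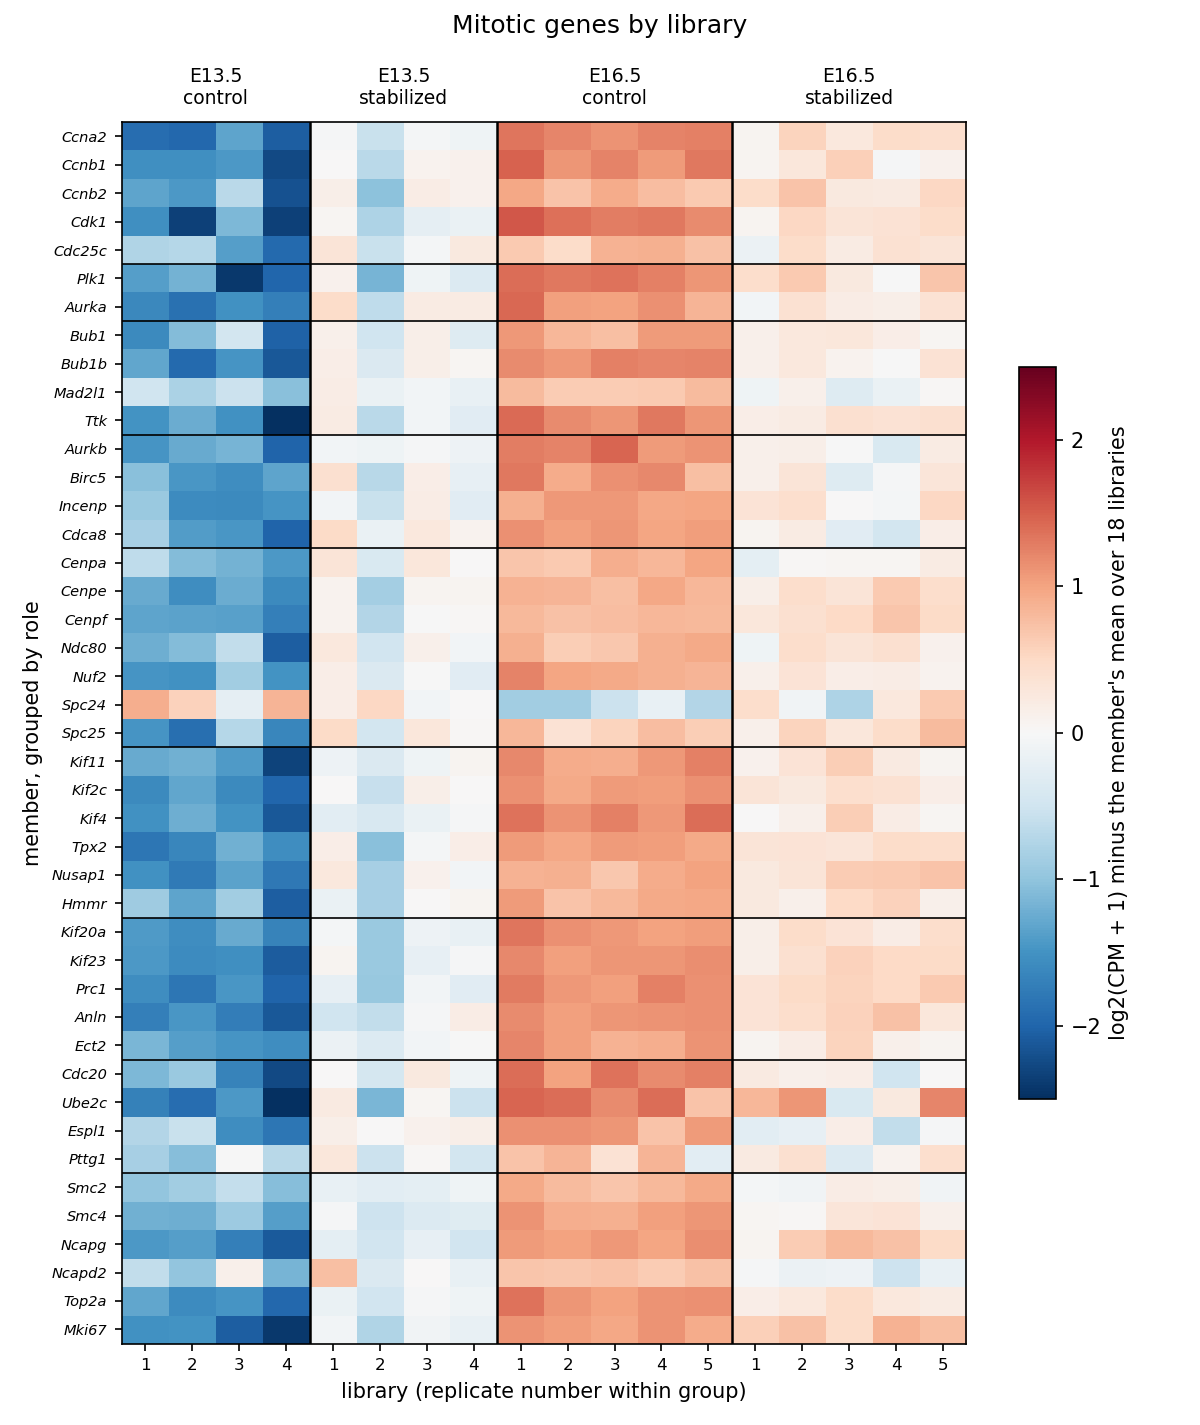
Level of each of the 43 genes (rows, grouped by role) in each of the 18 libraries (columns, by group and replicate number), as log2(CPM + 1) minus that gene's mean over the 18 libraries; blue is below and red above the mean. Most rows are lowest in the 4 E13.5 controls and highest in the 5 E16.5 controls, with both stabilized groups between them, and Spc24 runs the other way.

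The group means followed 1 order in 37 of the 43 genes: lowest in E13.5 controls, then E13.5 stabilized, then E16.5 stabilized, and highest in E16.5 controls. In Mad2l1, Cdca8, Cenpa, Espl1 and Ncapd2 the stabilized groups changed places. Summed over the 43 genes, the 2 stabilized groups did not overlap, at 2746 to 4130 CPM per library at E13.5 and 4699 to 5251 CPM at E16.5. At E13.5 all 4 stabilized libraries exceeded all 4 controls for 38 genes, against 9.93% of all tested genes that did so. At E16.5 all 5 stabilized libraries lay below all 5 controls for 37 genes, against 17.9%. From E13.5 to E16.5 the libraries did not overlap for 41 genes in controls (22.3% of all tested genes) and for 20 in stabilized embryos (15.4%), so the neighbouring stabilized groups overlapped for the other 23. Across both factors, stabilized libraries at E13.5 stayed below all E16.5 controls for 39 genes (20.6%), and stabilized libraries at E16.5 stayed above all E13.5 controls for 39 (18.4%). Summed over the 43 genes, the level was 1662 CPM ± 220 (SD, n = 4) in E13.5 controls, 3614 ± 606 (SD, n = 4) in E13.5 stabilized, 7844 ± 329 (SD, n = 5) in E16.5 controls and 5010 CPM ± 225 (SD, n = 5) in E16.5 stabilized libraries.

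**Figure D3:**
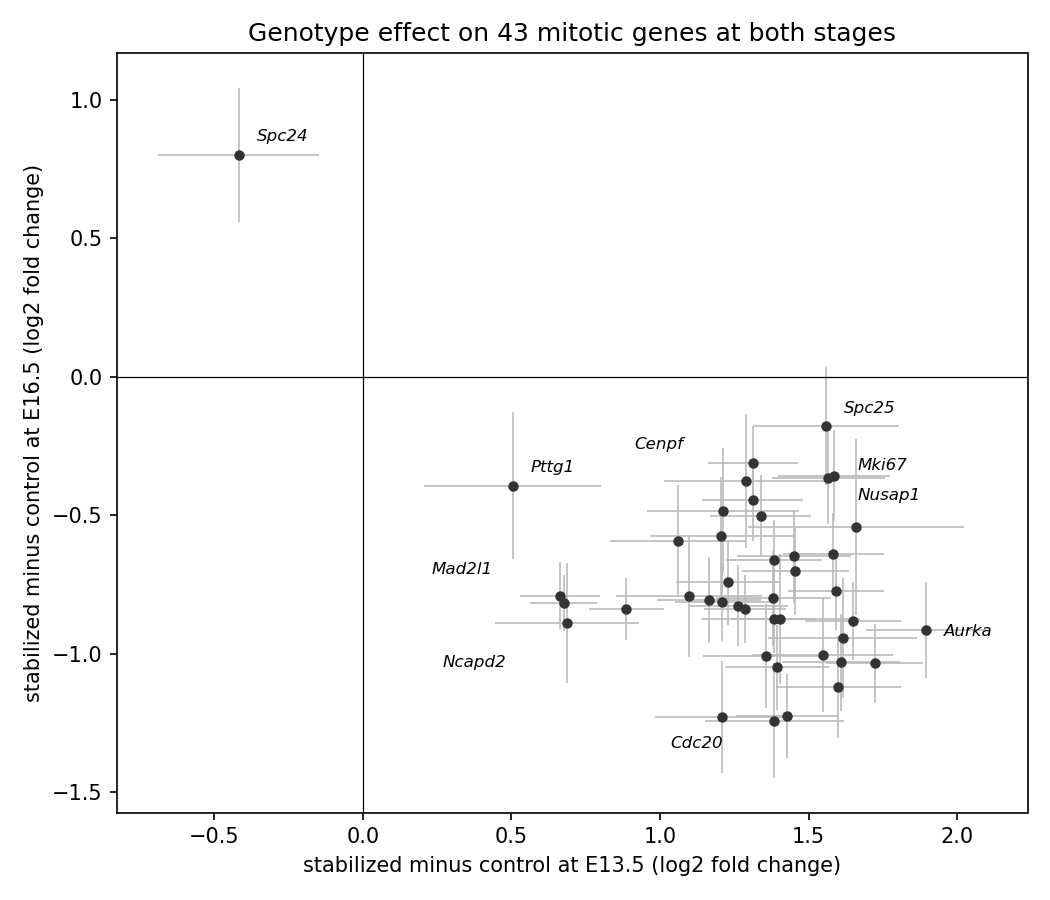
Genotype effect on each of the 43 genes at E13.5 (horizontal axis) and at E16.5 (vertical axis), both as the log2 fold change of stabilized against control libraries, with bars of 1 SE. All genes but Spc24 lie at the lower right, higher at E13.5 and lower at E16.5, though not each of them passed the test at both stages.

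Of the 5 genes of mitotic entry, all 5 were higher in stabilized libraries at E13.5 (median log2 difference 1.55) and 3 of 5 were lower at E16.5 (median -0.88). Ccna2 encodes cyclin A2, which drives S phase and the entry into mitosis. Ccna2 was at 24.1, 23.4, 36.99 and 21.8 CPM in the E13.5 controls and at 92.1, 63.6, 91.0 and 86.7 CPM in the E13.5 stabilized libraries. Ccna2 at E16.5 was at 238, 219, 205, 224 and 227 CPM in controls and at 98.9, 138, 113, 129 and 126 CPM in stabilized libraries. Ccna2 groups did not overlap at either stage, with log2 differences of 1.65 ± 0.16 (SE, adjusted p = 5.11e-07) at E13.5 and -0.88 ± 0.14 (SE, adjusted p = 4.31e-05) at E16.5. Ccnb1 encodes cyclin B1, the partner of Cdk1 at mitotic entry. The E13.5 controls held 22.9, 22.9, 24.6 and 13.46 CPM of Ccnb1, and the E13.5 stabilized libraries 68.2, 41.97, 72.7 and 73.0 CPM. In the E16.5 controls Ccnb1 stood at 190.4, 148, 161, 143 and 171 CPM, and in the E16.5 stabilized libraries at 71.1, 82.8, 104, 67.0 and 73.7 CPM. Ccnb1 libraries separated fully by genotype at both stages, by 1.61 ± 0.20 (SE, adjusted p = 9.63e-06) and -1.03 ± 0.17 (SE, adjusted p = 8.18e-05) log2 units. Cdk1 is the kinase that cyclins A and B activate. Cdk1 measured 17.96, 9.81, 24.1 and 9.87 CPM in the E13.5 control libraries, beside 55.5, 31.2, 46.0 and 47.6 CPM in the stabilized ones. Cdk1 then measured 159.7, 142, 133, 137 and 123 CPM in the E16.5 controls and 56.9, 78.0, 67.6, 69.2 and 74.7 CPM in the E16.5 stabilized libraries. Every stabilized library again lay above the controls at E13.5 and below them at E16.5, and Cdk1 differed by 1.55 ± 0.24 (SE, adjusted p = 0.000104) and -1.003 ± 0.21 (SE, adjusted p = 0.000595). Ccnb2, cyclin B2, and Cdc25c, a phosphatase that activates Cdk1, differed by 1.29 ± 0.28 (SE, adjusted p = 0.00269) and 1.21 ± 0.26 (SE, adjusted p = 0.00238) at E13.5, and by -0.38 ± 0.24 (SE, adjusted p = 0.23) and -0.48 ± 0.22 (SE, adjusted p = 0.0928) at E16.5, where neither passed the test. Over stage in controls, Cdk1 had a change of 3.17 ± 0.24 (SE, adjusted p = 3.89e-09), and in stabilized embryos Ccna2 and Cdk1 were the 2 of 5 that rose, by 0.54 ± 0.15 (SE, adjusted p = 0.0109) and 0.62 ± 0.22 (SE, adjusted p = 0.0416). With the factors of the deposited normalized table, which differ from gene to gene, as offsets, the E13.5 value of Cdc25c was 0.55 (adjusted p = 0.642). Fitted with only the E16.5 libraries, Ccnb2 (-0.37, adjusted p = 0.01575) and Cdc25c (-0.47, adjusted p = 0.0129) were called lower at E16.5.

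Plk1 and Aurka encode kinases that act on centrosomes and the spindle, Polo-like kinase 1 and Aurora A. Aurka showed the largest E13.5 difference of the 43 genes, 1.90 ± 0.20 (SE, adjusted p = 1.48e-06) log2 units. Aurka was at 8.79, 7.17, 9.43 and 8.15 CPM in the E13.5 controls and at 39.9, 18.1, 33.5 and 33.4 CPM in the E13.5 stabilized libraries. Aurka at E16.5 was at 79.2, 59.6, 58.9, 64.3 and 52.5 CPM in controls and at 27.4, 37.5, 32.7, 32.0 and 37.4 CPM in stabilized libraries. Its lowest stabilized value at E13.5, in library 2, was still above every control, and at E16.5 the order turned, with a difference of -0.91 ± 0.17 (SE, adjusted p = 0.000273). The E13.5 controls held 20.3, 23.3, 9.36 and 13.1 CPM of Plk1, and the E13.5 stabilized libraries 58.6, 23.6, 50.2 and 42.6 CPM. In the E16.5 controls Plk1 stood at 145, 137, 141, 132 and 117 CPM, and in the E16.5 stabilized libraries at 73.7, 86.6, 64.2, 53.7 and 89.0 CPM. Plk1 in stabilized library 2 was almost level with the highest E13.5 control, and the differences were 1.41 ± 0.27 (SE, adjusted p = 0.00109) at E13.5 and -0.87 ± 0.24 (SE, adjusted p = 0.00566) at E16.5. Aurka also had the most negative change of effect between the stages, -2.81 ± 0.27 (SE, adjusted p = 2.31e-07), and Plk1 had -2.28 ± 0.36 (SE, adjusted p = 7.49e-05).

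The spindle checkpoint holds anaphase back until every kinetochore is attached, and all 4 of its genes here were higher in stabilized libraries at E13.5 and lower at E16.5, with medians of 1.36 and -0.87. Bub1b encodes BubR1, which inhibits the anaphase-promoting complex. Bub1b measured 32.1, 20.2, 28.7 and 17.9 CPM in the E13.5 control libraries, beside 90.6, 62.9, 89.2 and 83.5 CPM in the stabilized ones. Bub1b then measured 185, 173, 196, 190.5 and 193 CPM in the E16.5 controls and 89.0, 97.7, 86.3, 80.8 and 104 CPM in the E16.5 stabilized libraries. No Bub1b library of one genotype reached the range of the other at either stage, and the differences were 1.72 ± 0.16 (SE, adjusted p = 3.87e-07) and -1.03 ± 0.14 (SE, adjusted p = 8.50e-06). Ttk encodes the kinase Mps1, which starts checkpoint signalling. Ttk was at 6.33, 7.73, 6.22 and 2.49 CPM in the E13.5 controls and at 22.9, 12.1, 18.7 and 16.1 CPM in the E13.5 stabilized libraries. Ttk at E16.5 was at 54.4, 46.1, 43.6, 50.4 and 43.3 CPM in controls and at 22.2, 23.0, 26.5, 25.5 and 26.4 CPM in stabilized libraries. Ttk groups were likewise apart, by 1.61 ± 0.25 (SE, adjusted p = 0.000122) and -0.94 ± 0.22 (SE, adjusted p = 0.00159). Mad2l1 encodes Mad2, which binds Cdc20. The E13.5 controls held 43.2, 35.3, 42.1 and 29.4 CPM of Mad2l1, and the E13.5 stabilized libraries 70.0, 54.9, 58.9 and 53.8 CPM. In the E16.5 controls Mad2l1 stood at 107, 96.1, 96.5, 97.3 and 107 CPM, and in the E16.5 stabilized libraries at 57.1, 67.1, 49.1, 54.5 and 63.1 CPM. Mad2l1 had one of the smaller E13.5 differences, 0.66 ± 0.14 (SE, adjusted p = 0.00174), and an E16.5 difference of -0.79 ± 0.12 (SE, adjusted p = 2.64e-05). Bub1, a checkpoint kinase at kinetochores, differed by 1.10 ± 0.25 (SE, adjusted p = 0.00387) and -0.79 ± 0.22 (SE, adjusted p = 0.00622), with overlapping libraries at E13.5. From E13.5 to E16.5 in stabilized embryos 0 of these 4 passed the edgeR test, and at an unadjusted p under 0.05 the count was 1, for Ttk. With the gene-wise factors of the deposited normalized table as offsets, the E13.5 calls of Bub1 (0.77, adjusted p = 0.0579) and Mad2l1 (0.84, adjusted p = 0.142) were lost, and that of Bub1 also when only the E13.5 libraries were fitted (1.09, adjusted p = 0.0613).

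The chromosomal passenger complex, which corrects wrong attachments and later marks the cleavage plane, also had all 4 of its genes higher at E13.5 and lower at E16.5, with medians of 1.39 and -1.06. Aurkb encodes its kinase, Aurora B. Aurkb measured 12.6, 14.9, 15.8 and 8.41 CPM in the E13.5 control libraries, beside 35.3, 33.9, 36.2 and 33.5 CPM in the stabilized ones. Aurkb then measured 91.0, 87.9, 102, 78.2 and 81.4 CPM in the E16.5 controls and 40.2, 40.7, 36.7, 28.1 and 42.7 CPM in the E16.5 stabilized libraries. Aurkb was the member in which the 4 E13.5 stabilized libraries lay closest together, and it differed by 1.43 ± 0.17 (SE, adjusted p = 6.80e-06) and -1.23 ± 0.15 (SE, adjusted p = 2.22e-06). Cdca8 encodes borealin, which targets the complex to centromeres. Cdca8 was at 26.7, 17.7, 17.1 and 11.4 CPM in the E13.5 controls and at 68.2, 42.8, 58.7 and 51.6 CPM in the E13.5 stabilized libraries. Cdca8 at E16.5 was at 109, 100.1, 106, 96.8 and 102 CPM in controls and at 51.1, 56.1, 39.6, 34.8 and 54.3 CPM in stabilized libraries. Cdca8 groups did not overlap within either stage, and they differed by 1.60 ± 0.21 (SE, adjusted p = 1.94e-05) and -1.12 ± 0.19 (SE, adjusted p = 6.32e-05). Incenp encodes the scaffold of the complex. The E13.5 controls held 62.0, 39.2, 38.7 and 42.1 CPM of Incenp, and the E13.5 stabilized libraries 113, 80.2, 136 and 97.5 CPM. In the E16.5 controls Incenp stood at 222, 254, 254, 233 and 237 CPM, and in the E16.5 stabilized libraries at 151, 159.9, 119, 115 and 171 CPM. One E13.5 control stood above the other 3 and below all stabilized libraries, and Incenp differed by 1.23 ± 0.18 (SE, adjusted p = 4.87e-05) and -0.74 ± 0.15 (SE, adjusted p = 0.000649). Birc5, survivin, differed by 1.36 ± 0.21 (SE, adjusted p = 0.000136) and -1.01 ± 0.19 (SE, adjusted p = 0.000221).

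At the centromere and kinetochore 6 of 7 genes were higher in stabilized libraries at E13.5 (median 1.26), and at E16.5 4 were lower and 1 higher (median -0.45). Cenpf and Cenpe encode large proteins of the outer kinetochore, the latter a motor that brings chromosomes to the spindle equator. Cenpf measured 92.9, 91.3, 90.1 and 70.4 CPM in the E13.5 control libraries, beside 247, 139.6, 231 and 238 CPM in the stabilized ones. Cenpf then measured 405, 388, 395, 410.1 and 407 CPM in the E16.5 controls and 283, 307, 328, 374 and 324 CPM in the E16.5 stabilized libraries. Cenpf libraries did not overlap at E13.5, nor at E16.5, although the E16.5 difference of -0.31 ± 0.13 (SE, adjusted p = 0.0678) did not pass the test, while that at E13.5 was 1.31 ± 0.15 (SE, adjusted p = 3.94e-06). Cenpe was at 58.8, 47.7, 59.4 and 46.6 CPM in the E13.5 controls and at 152, 78.8, 148 and 149 CPM in the E13.5 stabilized libraries. Cenpe at E16.5 was at 259, 256, 241, 279 and 253 CPM in controls and at 158, 192, 177, 224 and 194 CPM in stabilized libraries. Cenpe in stabilized library 2 was well under its 3 companions and above the controls, with differences of 1.31 ± 0.17 (SE, adjusted p = 1.53e-05) and -0.45 ± 0.15 (SE, adjusted p = 0.021). Nuf2 encodes an arm of the NDC80 complex, which grips microtubule ends. The E13.5 controls held 10.9, 10.6, 17.1 and 10.8 CPM of Nuf2, and the E13.5 stabilized libraries 35.8, 24.6, 31.9 and 26.1 CPM. In the E16.5 controls Nuf2 stood at 77.3, 64.7, 62.4, 60.3 and 58.3 CPM, and in the E16.5 stabilized libraries at 34.9, 40.9, 35.9, 36.4 and 34.2 CPM. Nuf2 separated by genotype at both stages, by 1.26 ± 0.17 (SE, adjusted p = 2.04e-05) and -0.83 ± 0.15 (SE, adjusted p = 0.000139). Cenpa, the histone H3 variant that marks centromeres, differed by 1.17 ± 0.17 (SE, adjusted p = 8.18e-05) and -0.81 ± 0.15 (SE, adjusted p = 0.000283), and Ndc80 by 1.21 ± 0.24 (SE, adjusted p = 0.00147) and -0.58 ± 0.21 (SE, adjusted p = 0.0353). The E16.5 call of Cenpe was lost without stabilized library 1 (adjusted p = 0.0571), and that of Ndc80 without control library 1, 4 or 5 or stabilized library 1 or 5 (adjusted p from 0.0663 to 0.0888). With DESeq2 the Ndc80 value at E16.5 was -0.54 (adjusted p = 0.0534). With the deposited gene-wise factors as offsets the E13.5 value of Nuf2 was 0.71 (adjusted p = 0.139). The E16.5 call of Cenpf was made without stabilized library 4 (-0.38, adjusted p = 0.0365) and with only the E16.5 libraries fitted (-0.30, adjusted p = 0.0214).

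The NDC80 complex joins the Ndc80 and Nuf2 proteins to Spc24 and Spc25, which anchor it to the inner kinetochore, and its 4 genes did not share a pattern. Spc24 measured 338, 266, 152 and 324 CPM in the E13.5 control libraries, beside 201, 256, 171 and 181 CPM in the stabilized ones. Spc24 then measured 97.6, 97.4, 123, 157 and 107 CPM in the E16.5 controls and 242, 168, 104, 217 and 282 CPM in the E16.5 stabilized libraries. Spc24 was highest in E13.5 controls and lowest in E16.5 controls, the reverse of the other genes, with overlap between genotypes at both stages. Its genotype difference was -0.42 ± 0.27 (SE, adjusted p = 0.372) at E13.5, which did not pass the test, and 0.80 ± 0.24 (SE, adjusted p = 0.0129) at E16.5, which did, and the change of effect was 1.22 ± 0.36 (SE, adjusted p = 0.0153). In controls Spc24 fell over stage, -1.21 ± 0.26 (SE, adjusted p = 0.000763). Spc25 was at 9.64, 7.02, 17.0 and 8.48 CPM in the E13.5 controls and at 39.9, 20.6, 34.6 and 29.0 CPM in the E13.5 stabilized libraries. Spc25 at E16.5 was at 51.2, 37.05, 42.6, 49.2 and 44.4 CPM in controls and at 31.3, 42.4, 34.9, 39.3 and 50.3 CPM in stabilized libraries. Spc25 was apart by genotype at E13.5, 1.56 ± 0.25 (SE, adjusted p = 0.000143), and overlapped at E16.5, -0.18 ± 0.21 (SE, adjusted p = 0.536), where it did not pass. With the deposited gene-wise factors as offsets the Spc25 values were 1.13 (adjusted p = 0.055) and 0.27 (adjusted p = 0.561). Per kilobase of annotated exon, Spc24 stood at 104.9 CPM ± 32.8 (SD, n = 4) in E13.5 controls, where Ndc80 stood at 1.84 ± 0.755, Nuf2 at 1.94 ± 0.501 and Spc25 at 3.30 ± 1.39 CPM. In E16.5 controls the same length-scaled levels were 45.2 ± 9.64 CPM (SD, n = 5) for Spc24 and 7.65 ± 0.793, 10.2 ± 1.18 and 14.1 ± 1.76 CPM for Ndc80, Nuf2 and Spc25. Spc24 thus exceeded its 3 partners per kilobase in every group mean, with no overlap among libraries. Spc24 lies on the minus strand of chr9:21755442-21760303 in GENCODE M21 (GRCm38/mm10) and overlaps no other annotated gene there. Its deviations from the group means went against those of the other members within groups (r = -0.38 over 18 libraries, which share their depth and scaling, given as a description), while the median of that r over the 43 genes was 0.71 and 36 exceeded 0.5.

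**Figure D4:**
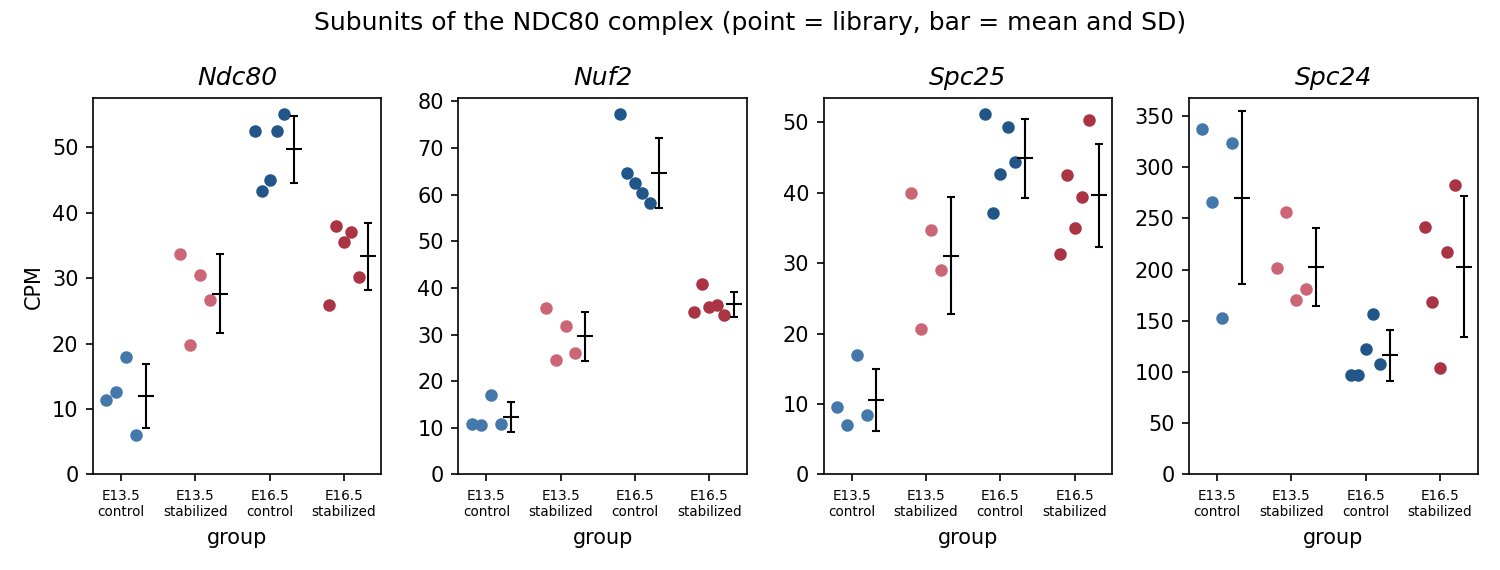
CPM of Ndc80, Nuf2, Spc25 and Spc24 in each library (points) by group, with the mean and SD as a bar beside them; each panel has its own vertical axis, starting at 0. Spc24 is highest in the E13.5 controls and lowest in the E16.5 controls, and the other 3 genes show the opposite order.

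Among spindle motors and microtubule proteins all 6 were higher in stabilized libraries at E13.5 (median 1.42) and 5 of 6 were lower at E16.5 (median -0.71). Kif2c encodes MCAK, a kinesin that takes microtubule ends apart. Kif2c was at 12.3, 15.4, 12.4 and 9.19 CPM in the E13.5 controls and at 39.5, 26.1, 43.7 and 39.6 CPM in the E13.5 stabilized libraries. Kif2c then measured 88.3, 76.7, 83.1, 82.7 and 88.1 CPM in the E16.5 controls and 49.3, 46.7, 53.1, 51.4 and 44.3 CPM in the E16.5 stabilized libraries. Kif2c was separated by genotype at both stages, by 1.59 ± 0.16 (SE, adjusted p = 8.28e-07) and -0.77 ± 0.14 (SE, adjusted p = 0.000167). Kif4, the mouse KIF4A, is a chromosome-bound kinesin that also acts in the midzone. Kif4 measured 17.5, 21.6, 17.9 and 11.1 CPM in the E13.5 control libraries, beside 43.2, 38.9, 46.4 and 50.8 CPM in the stabilized ones. Kif4 then measured 135, 114, 126, 112 and 138 CPM in the E16.5 controls and 52.3, 56.8, 79.8, 58.8 and 53.6 CPM in the E16.5 stabilized libraries. Kif4 differed by 1.40 ± 0.17 (SE, adjusted p = 1.10e-05) and -1.05 ± 0.15 (SE, adjusted p = 1.65e-05), and stabilized library 3 at E16.5 stood above its group. Nusap1 encodes a protein that stabilizes and bundles spindle microtubules. Nusap1 was at 18.9, 15.9, 21.6 and 15.6 CPM in the E13.5 controls and at 67.5, 31.2, 61.0 and 53.6 CPM in the E13.5 stabilized libraries. Nusap1 at E16.5 was at 104, 105, 90.8, 108 and 114 CPM in controls and at 66.4, 70.2, 87.3, 88.5 and 92.8 CPM in stabilized libraries. Nusap1 was apart at E13.5, 1.57 ± 0.19 (SE, adjusted p = 7.49e-06), and overlapped at E16.5, -0.36 ± 0.17 (SE, adjusted p = 0.0845), without passing. With the gene-wise factors of the deposited normalized table as offsets this E16.5 value turned to 1.76 (adjusted p = 0.0059), and the change of effect between stages, -1.93 ± 0.25 (SE, adjusted p = 8.18e-06), was then 0.11 (adjusted p = 0.95). Nusap1 was called lower at E16.5 with only the E16.5 libraries fitted (-0.35, adjusted p = 0.0243) and with a replicate block (-0.37, adjusted p = 0.0489). Kif11, the motor that pushes the spindle poles apart, differed by 1.38 ± 0.19 (SE, adjusted p = 3.88e-05) and -0.80 ± 0.17 (SE, adjusted p = 0.000776), Tpx2, which activates Aurora A, by 1.45 ± 0.19 (SE, adjusted p = 2.06e-05) and -0.65 ± 0.17 (SE, adjusted p = 0.00404), and Hmmr, a spindle pole protein, by 1.06 ± 0.23 (SE, adjusted p = 0.00279) and -0.59 ± 0.20 (SE, adjusted p = 0.0238). The E16.5 call of Hmmr was lost without control library 1 or stabilized library 2 or 5 (adjusted p from 0.0585 to 0.0612), and with the deposited gene-wise factors as offsets (adjusted p = 0.0938).

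The 5 genes of the central spindle and cytokinesis were all higher in stabilized libraries at E13.5 (median 1.38) and all lower at E16.5 (median -0.70). Anln encodes anillin, a scaffold of the contractile ring. Anln was at 19.9, 23.6, 19.4 and 14.6 CPM in the E13.5 controls and at 47.3, 43.3, 65.8 and 75.8 CPM in the E13.5 stabilized libraries. Anln then measured 153, 137, 144, 146 and 149.7 CPM in the E16.5 controls and 85.1, 91.4, 99.5, 112 and 81.6 CPM in the E16.5 stabilized libraries. Anln did not overlap between genotypes at either stage and differed by 1.58 ± 0.17 (SE, adjusted p = 1.74e-06) and -0.64 ± 0.15 (SE, adjusted p = 0.0017). Ect2 encodes the exchange factor that switches on RhoA at the cleavage plane. Ect2 measured 21.8, 18.3, 17.0 and 16.1 CPM in the E13.5 control libraries, beside 44.2, 38.5, 46.7 and 49.1 CPM in the stabilized ones. Ect2 then measured 116, 101, 90.7, 94.1 and 109 CPM in the E16.5 controls and 52.0, 55.9, 72.5, 53.9 and 51.9 CPM in the E16.5 stabilized libraries. Ect2 had a tight E13.5 separation, 1.29 ± 0.14 (SE, adjusted p = 1.74e-06), and an E16.5 difference of -0.84 ± 0.12 (SE, adjusted p = 1.51e-05). Prc1 encodes the protein that bundles antiparallel microtubules of the midzone. Prc1 was at 27.9, 23.1, 29.6 and 20.1 CPM in the E13.5 controls and at 72.3, 42.5, 79.9 and 68.0 CPM in the E13.5 stabilized libraries. Prc1 at E16.5 was at 206, 178, 170.4, 200 and 185 CPM in controls and at 106, 117, 122, 118 and 131 CPM in stabilized libraries. Prc1 libraries were apart at both stages, by 1.39 ± 0.16 (SE, adjusted p = 4.60e-06) and -0.66 ± 0.14 (SE, adjusted p = 0.000849). Kif20a and Kif23, midzone kinesins, differed by 1.21 ± 0.16 (SE, adjusted p = 1.80e-05) and 1.46 ± 0.18 (SE, adjusted p = 9.76e-06) at E13.5 and by -0.81 ± 0.14 (SE, adjusted p = 9.45e-05) and -0.70 ± 0.16 (SE, adjusted p = 0.00125) at E16.5. In stabilized embryos all 5 rose from E13.5 to E16.5, from 0.36 ± 0.13 (SE, adjusted p = 0.0441) for Ect2 to 0.86 ± 0.15 (SE, adjusted p = 0.000292) for Prc1. With the deposited gene-wise factors as offsets the stage calls of Anln (adjusted p = 0.108), Kif23 (adjusted p = 0.11), Prc1 (adjusted p = 0.166) and Ect2 (adjusted p = 0.462) were lost, and that of Kif20a was kept.

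Of the 4 genes of anaphase control, 3 were higher in stabilized libraries at E13.5 (median 1.30) and 2 were lower at E16.5 (median -0.89). Cdc20 encodes the activator of the anaphase-promoting complex that the checkpoint restrains. Cdc20 was at 25.1, 28.9, 16.9 and 10.9 CPM in the E13.5 controls and at 56.0, 40.9, 65.9 and 51.3 CPM in the E13.5 stabilized libraries. Cdc20 then measured 148, 113, 145, 128 and 135 CPM in the E16.5 controls and 65.0, 60.7, 62.5, 39.1 and 55.9 CPM in the E16.5 stabilized libraries. Cdc20 differed by 1.39 ± 0.23 (SE, adjusted p = 0.000285) at E13.5 and had the most negative E16.5 difference of the 43 genes, -1.24 ± 0.21 (SE, adjusted p = 6.93e-05). Espl1 encodes separase, the protease that cuts cohesin. Espl1 measured 29.6, 33.9, 16.4 and 13.6 CPM in the E13.5 control libraries, beside 55.7, 50.8, 54.3 and 55.5 CPM in the stabilized ones. Espl1 then measured 112, 112, 109.6, 82.9 and 106 CPM in the E16.5 controls and 41.6, 43.6, 56.3, 32.6 and 48.8 CPM in the E16.5 stabilized libraries. Espl1 controls at E13.5 spread widely and stayed below the stabilized libraries, and the differences were 1.21 ± 0.23 (SE, adjusted p = 0.000831) and -1.23 ± 0.20 (SE, adjusted p = 5.96e-05). Ube2c encodes the ubiquitin-conjugating enzyme of the complex. Ube2c was at 20.1, 17.4, 24.3 and 9.51 CPM in the E13.5 controls and at 78.9, 30.2, 70.2 and 46.2 CPM in the E13.5 stabilized libraries. Ube2c at E16.5 was at 185, 179, 154, 178 and 111 CPM in controls and at 120.2, 145, 51.3, 79.6 and 158 CPM in stabilized libraries. Ube2c spread most among the 4 in the stabilized libraries and had the largest rise over stage in controls, 3.18 ± 0.38 (SE, adjusted p = 2.78e-06), with genotype differences of 1.66 ± 0.36 (SE, adjusted p = 0.00428) and, without passing, -0.54 ± 0.32 (SE, adjusted p = 0.187). Pttg1 encodes securin, the inhibitor of separase. Pttg1 was at 6.54, 5.47, 12.47 and 7.31 CPM in the E13.5 controls and at 15.3, 8.26, 12.8 and 8.77 CPM in the E13.5 stabilized libraries. Pttg1 then measured 21.0, 23.2, 16.4, 23.1 and 10.2 CPM in the E16.5 controls and 14.8, 16.7, 9.71, 13.3 and 17.1 CPM in the E16.5 stabilized libraries. Pttg1 overlapped between genotypes at both stages and did not pass at E13.5, 0.50 ± 0.30 (SE, adjusted p = 0.313), or E16.5, -0.39 ± 0.27 (SE, adjusted p = 0.255), nor in the test between them, -0.90 ± 0.40 (SE, adjusted p = 0.0952), although in controls it rose over stage by 1.24 ± 0.29 (SE, adjusted p = 0.0016). Without E13.5 control library 3 or E16.5 control library 5 the test between the stages passed for Pttg1 (-1.20, adjusted p = 0.0186, and -1.05, adjusted p = 0.038). With the deposited gene-wise factors as offsets the E16.5 value of Espl1 was -0.17 (adjusted p = 0.764).

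In the group of condensin and chromosome structure 5 of 6 genes were higher in stabilized libraries at E13.5 (median 1.11) and 5 of 6 lower at E16.5 (median -0.83). Top2a encodes topoisomerase II alpha, which untangles sister DNA. Top2a measured 148, 123, 131 and 93.2 CPM in the E13.5 control libraries, beside 329, 263, 358 and 341 CPM in the stabilized ones. Top2a then measured 935, 792, 737, 798 and 809 CPM in the E16.5 controls and 410.5, 443, 503, 443 and 421 CPM in the E16.5 stabilized libraries. Top2a did not overlap between genotypes at either stage and differed by 1.38 ± 0.14 (SE, adjusted p = 8.07e-07) and -0.87 ± 0.12 (SE, adjusted p = 1.05e-05). Mki67 encodes Ki-67, the coat of mitotic chromosomes and a common marker of proliferation. Mki67 was at 217, 221, 149 and 116 CPM in the E13.5 controls and at 595, 373, 593 and 549.5 CPM in the E13.5 stabilized libraries. Mki67 at E16.5 was at 1367, 1300, 1225, 1372 and 1189 CPM in controls and at 943, 1035, 858, 1145 and 1060 CPM in stabilized libraries. Mki67 was apart by genotype at E13.5, 1.58 ± 0.19 (SE, adjusted p = 5.67e-06), and at E16.5 its libraries were also apart while the difference of -0.36 ± 0.16 (SE, adjusted p = 0.0901) did not pass. Fitted with only the E16.5 libraries, that difference passed (-0.34, adjusted p = 0.0186). Ncapg encodes a subunit of condensin I. Ncapg was at 17.6, 18.4, 14.3 and 10.7 CPM in the E13.5 controls and at 41.7, 35.3, 42.5 and 34.9 CPM in the E13.5 stabilized libraries. Ncapg then measured 105, 100.1, 106, 98.9 and 111 CPM in the E16.5 controls and 51.4, 76.9, 87.0, 82.5 and 69.0 CPM in the E16.5 stabilized libraries. Ncapg differed by 1.34 ± 0.17 (SE, adjusted p = 1.25e-05) and -0.50 ± 0.15 (SE, adjusted p = 0.00974). Smc2 and Smc4, the ATPase core of condensin, had smaller E13.5 differences, 0.68 ± 0.11 (SE, adjusted p = 0.000282) and 0.89 ± 0.13 (SE, adjusted p = 4.72e-05), and E16.5 differences of -0.82 ± 0.10 (SE, adjusted p = 2.42e-06) and -0.84 ± 0.11 (SE, adjusted p = 5.91e-06). Ncapd2, another condensin I subunit, spread widely. Ncapd2 measured 133, 103, 224 and 90.3 CPM in the E13.5 control libraries, beside 343, 159, 205 and 179.5 CPM in the stabilized ones. Ncapd2 then measured 332, 328, 335, 320.2 and 341 CPM in the E16.5 controls and 199.8, 184, 187, 143 and 179.9 CPM in the E16.5 stabilized libraries. Ncapd2 overlapped at E13.5, where E13.5 control library 3 was above stabilized libraries 2, 3 and 4, and did not pass, 0.69 ± 0.24 (SE, adjusted p = 0.0641). At E16.5 it was lower in stabilized libraries, -0.89 ± 0.22 (SE, adjusted p = 0.00266). Without control library 3 the E13.5 difference of Ncapd2 was 1.03 (adjusted p = 0.00147), and without stabilized library 2 it was 0.82 (adjusted p = 0.0309). With the deposited gene-wise factors as offsets Smc2 was at 0.46 (adjusted p = 0.381) and -0.62 (adjusted p = 0.0722), and Ncapd2 at -0.40 at E16.5 (adjusted p = 0.471) and 0.12 over stage in controls (adjusted p = 0.857).

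Over stage the controls and the stabilized embryos differed most in size. In controls the rise ran from 1.24 ± 0.29 (SE, adjusted p = 0.0016) for Pttg1 to 3.18 ± 0.38 (SE, adjusted p = 2.78e-06) for Ube2c among the 42 that rose. In stabilized embryos the 17 that rose ran from 0.36 ± 0.13 (SE, adjusted p = 0.0441) for Ect2 to 0.98 ± 0.34 (SE, adjusted p = 0.0418) for Ube2c. Next to Ube2c, the larger of these rises belonged to Mki67, 0.93 ± 0.18 (SE, adjusted p = 0.000548), and Ncapg, 0.93 ± 0.16 (SE, adjusted p = 0.000218). By role, the 17 comprised 2 of 5 entry genes, 1 of 2 mitotic kinases, 0 of 4 checkpoint genes, 0 of 4 passenger genes (edgeR test; 1 of 4 in each at an unadjusted p under 0.05), 2 of 7 kinetochore genes, 2 of 6 motors and microtubule proteins, 5 of 5 cytokinesis genes, 1 of 4 anaphase genes and 4 of 6 chromosome genes. Whether the roles differ in this was not tested. Without E13.5 stabilized library 2 the calls of Cdk1, Plk1, Cenpe, Tpx2, Top2a, Ect2 and Ube2c were lost, with adjusted p from 0.0518 for Cenpe to 0.143 for Cdk1 and Ect2. Other single libraries also ended a call: for Cdk1 E13.5 stabilized libraries 3 and 4 and E16.5 stabilized libraries 2 to 5, for Plk1 E13.5 library 4 and E16.5 libraries 1, 2 and 5, for Tpx2 E13.5 library 3 and E16.5 libraries 1 to 5, for Ect2 E13.5 libraries 1 and 3 and E16.5 library 3, and for Ube2c E13.5 library 4 and E16.5 libraries 1, 2 and 5. Cenpf, Kif20a, Ncapg and Mki67 were the 4 that passed under every alternative run.

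**Figure D5:**
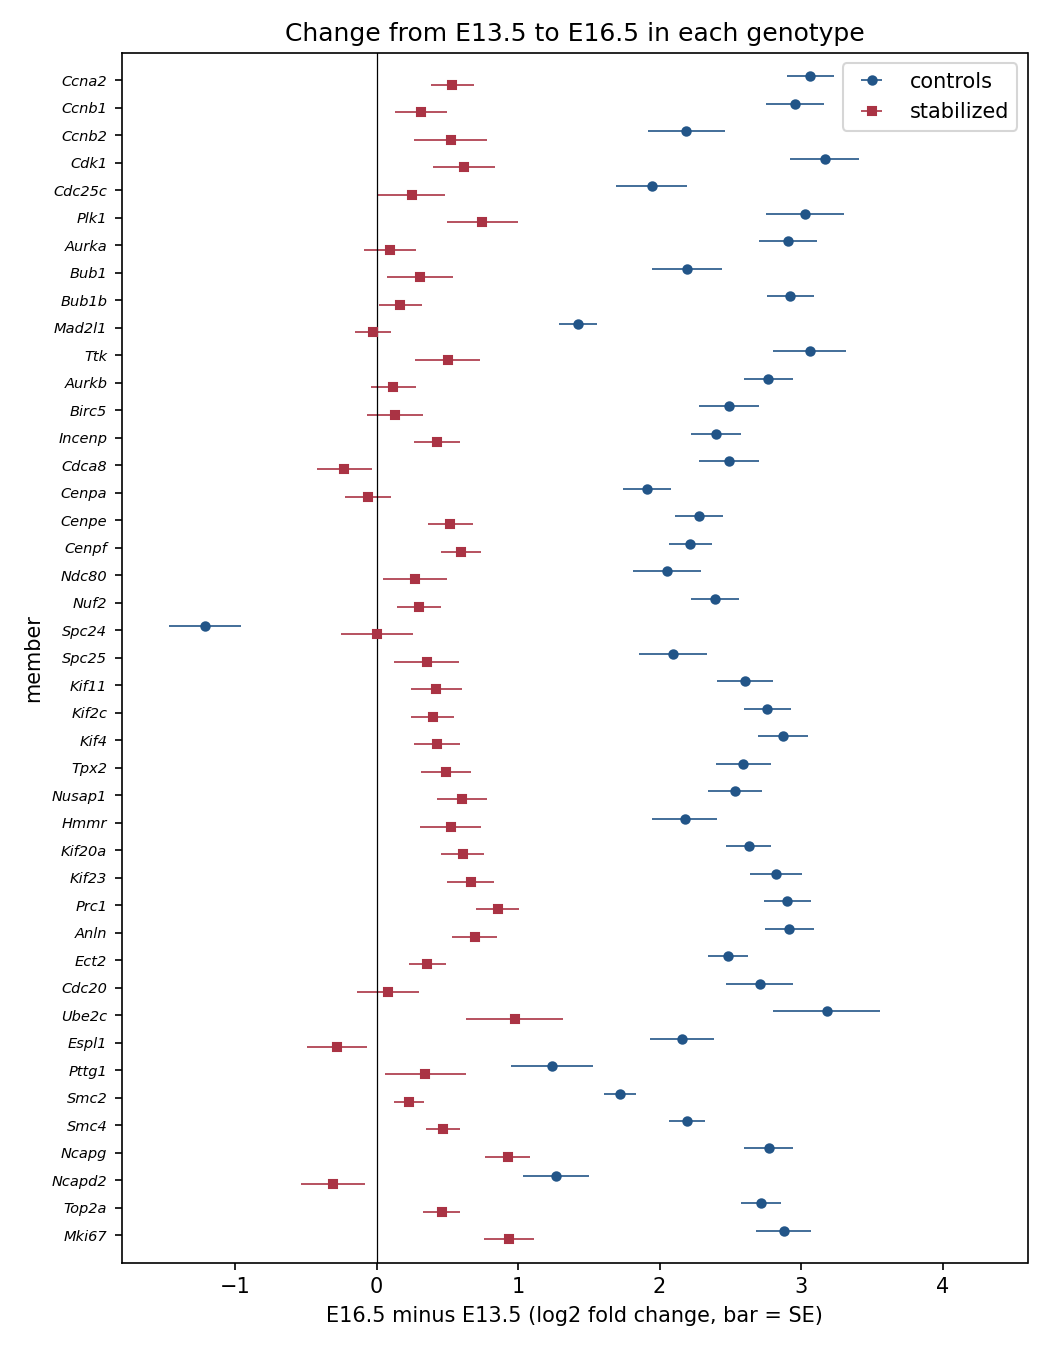
Change from E13.5 to E16.5 (horizontal axis, log2 fold change, bars of 1 SE) of each of the 43 genes (vertical axis) in controls (blue circles) and stabilized embryos (red squares). The controls lie between 1.24 and 3.18 for all genes but Spc24, at -1.21, and the stabilized values all lie closer to 0 than the control value of the same gene.

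Single libraries moved many of these genes together. E13.5 stabilized library 2 was the lowest of its group for 39 of the 43 genes, and E13.5 control library 4 for 33. The summed level was 2746 CPM in that stabilized library and 3691 to 4130 CPM in its 3 companions. Without the E13.5 stabilized library 2 together with E13.5 control library 3, whose mitochondrially encoded share was 4.18% against 2.18% to 2.504% in the other controls, 42 genes were higher at E13.5 and 42 had the lower effect at E16.5. That control library was also the highest of its group for 21 of the 43 genes. Leaving out a low stabilized and a high control library together favours a larger E13.5 difference, so these counts add no support. Leaving out any single library at a time gave 40 to 41 higher at E13.5 and 32 to 35 lower at E16.5. Of the 43 genes, 24 overlap another annotated gene in GENCODE M21 and 14 of these a protein-coding gene or pseudogene, among them Ccna2 (Exosc9), Kif20a (Cdc23), Nusap1 (Oip5) and Cdc20 (Elovl1). As the strand setting is not given in the sources used here, reads of such neighbours could be shared between the genes.

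At E16.5, where most mitotic genes were lower in stabilized libraries than in controls, markers of differentiated hair and skin were higher in them. The hair shaft markers summed to 0.117 to 1.62 CPM in E16.5 controls and 3260 to 5007 CPM in E16.5 stabilized libraries, and all 10 measured were higher in the latter. The 11 markers of differentiated epidermis summed to 48.1 to 208 CPM (median 134) in E16.5 controls and 1493 to 21420 CPM (median 1590) in E16.5 stabilized libraries, and all 11 were higher. Most stabilized libraries thus lay near the lower end of that range. Markers of neural and Schwann cells summed to 498 to 624 CPM in controls and 21.6 to 72.8 CPM (median 47.9) in stabilized libraries. Nearly all of the control sum was Sox10, which averaged 554 CPM in controls and 29.6 CPM in stabilized libraries, while Prph was at 0 in all controls. Sox10 was the 1 of these 6 markers called lower, and 2 were called higher. The median log2 difference over the 6 was 0.89, so the lower sum does not describe the list as a whole. Melanocyte markers summed to 92.2 to 150.5 CPM and 154.6 to 229 CPM, and mesenchymal markers to 573 to 1012 CPM and 359 to 574 CPM. The part of these cells or states in the E16.5 result was not tested. At E13.5 the hair shaft markers summed to at most 4.10 CPM in controls and 23.4 CPM in stabilized libraries.

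Genes of neighbouring steps of the cycle are given for the same comparisons, in which 9.58% of all tested genes were higher and 5.29% lower at E13.5, and 22.2% higher and 19.4% lower at E16.5. Of 65 further mitotic genes, 47 were higher and 0 lower at E13.5 (median 0.99), and 0 were higher and 45 lower at E16.5 (median -0.67). Kif15, a spindle kinesin, differed most clearly at E13.5, by 1.46 ± 0.16 (SE, adjusted p = 1.48e-06), followed by Cdca2, 1.40 ± 0.16 (SE, adjusted p = 2.66e-06), and Arhgap11a, 1.33 ± 0.15 (SE, adjusted p = 3.93e-06). At E16.5 Trip13, an ATPase that recycles Mad2, changed by -1.58 ± 0.15 (SE, adjusted p = 9.88e-08), Racgap1, the partner of Kif23, by -1.17 ± 0.14 (SE, adjusted p = 2.01e-06), and the kinase gene Melk by -1.03 ± 0.13 (SE, adjusted p = 3.91e-06). Of 44 genes of DNA replication and S phase, 33 were higher and 0 lower at E13.5 (median 0.72), and 0 were higher and 40 lower at E16.5 (median -0.91). Ccne1, cyclin E1, led at E13.5 with 2.54 ± 0.18 (SE, adjusted p = 9.59e-09), before the helicase subunit Mcm3, 1.17 ± 0.12 (SE, adjusted p = 1.13e-06), and Clspn, 1.19 ± 0.14 (SE, adjusted p = 6.26e-06). At E16.5 Mcm3 changed by -1.36 ± 0.11 (SE, adjusted p = 7.21e-09), Lig1, DNA ligase 1, by -1.10 ± 0.12 (SE, adjusted p = 5.10e-07), and Mcm7 by -1.06 ± 0.12 (SE, adjusted p = 5.39e-07). In both lists the edgeR counts of 0 were also 0 at an unadjusted p under 0.05. The mean log2 level of the 43 mitotic genes minus that of the S-phase genes was -0.32 ± 0.20 (SD, n = 4) in E13.5 controls, 0.21 ± 0.36 (SD, n = 4) in E13.5 stabilized, 0.45 ± 0.04 (SD, n = 5) in E16.5 controls and 0.60 ± 0.06 (SD, n = 5) in E16.5 stabilized libraries.

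Of 22 regulators of the mitotic programme, 7 were higher and 0 lower in stabilized libraries at E13.5 (edgeR, with 3 lower at an unadjusted p under 0.05), and 2 were higher and 10 lower at E16.5. Foxm1, the forkhead activator of late-cycle genes, averaged 22.9 CPM ± 6.61 (SD, n = 4) in E13.5 controls, 56.3 ± 9.04 (SD, n = 4) in E13.5 stabilized, 115 ± 7.61 (SD, n = 5) in E16.5 controls and 66.9 ± 8.93 (SD, n = 5) in E16.5 stabilized libraries, the order of most members. It differed by 1.29 ± 0.18 (SE, adjusted p = 3.67e-05) and -0.78 ± 0.16 (SE, adjusted p = 0.000506). Mybl2, which encodes B-Myb, differed by 1.81 ± 0.39 (SE, adjusted p = 0.00305) and -0.9957 ± 0.34 (SE, adjusted p = 0.0236), and E2f7, an atypical E2F repressor, by 1.68 ± 0.21 (SE, adjusted p = 1.06e-05) at E13.5. Tfdp1, the dimer partner of E2F, differed by 0.73 ± 0.12 (SE, adjusted p = 0.000238) at E13.5 and by -0.98 ± 0.11 (SE, adjusted p = 5.44e-07) at E16.5, and E2f1 and Rbbp4 changed at E16.5 by -1.24 ± 0.16 (SE, adjusted p = 4.94e-06) and -0.90 ± 0.13 (SE, adjusted p = 1.45e-05). Lin9, a MuvB core subunit, did not pass at E13.5, -0.11 ± 0.16 (SE, adjusted p = 0.743), or at E16.5, 0.022 ± 0.14 (SE, adjusted p = 0.917). Among the pocket proteins that repress cell-cycle genes, Rb1 and Rbl2 were the 2 regulators higher at E16.5, by 1.46 ± 0.17 (SE, adjusted p = 7.72e-07) and 0.36 ± 0.14 (SE, adjusted p = 0.0372), without passing at E13.5, -0.43 ± 0.18 (SE, adjusted p = 0.125) and -0.38 ± 0.15 (SE, adjusted p = 0.11). Rbl1, p107, passed at neither stage, 0.21 ± 0.13 (SE, adjusted p = 0.342) and -0.21 ± 0.12 (SE, adjusted p = 0.175).

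Of 16 brakes on mitotic entry and cell-cycle inhibitors, 2 were higher and 2 lower at E13.5, and 5 were higher and 4 lower at E16.5. These counts are small and lie near the shares over all tested genes, 9.58% and 5.29% at E13.5 and 22.2% and 19.4% at E16.5, so they say little about the list. Cdkn1a, which encodes the Cdk inhibitor p21, was higher in stabilized libraries at both stages, averaging 10.2 CPM ± 4.38 (SD, n = 4) against 383.5 ± 111 (SD, n = 4) at E13.5 and 36.1 ± 7.48 (SD, n = 5) against 329 ± 103 (SD, n = 5) at E16.5. Its differences were 5.24 ± 0.34 (SE, adjusted p = 8.38e-09) and 3.19 ± 0.27 (SE, adjusted p = 4.55e-08). Of the 43 mitotic genes 40 were higher at E13.5, and 34 were lower and 1 higher at E16.5. Wee1, the kinase that holds Cdk1 inactive, moved as most members did, by 0.41 ± 0.12 (SE, adjusted p = 0.027) and -1.23 ± 0.11 (SE, adjusted p = 2.99e-08). Pkmyt1, a related kinase, differed by 0.098 ± 0.26 (SE, adjusted p = 0.89) and -1.27 ± 0.24 (SE, adjusted p = 0.000223), the former without passing. Btg1, an antiproliferative gene, and Ccng1, a target of p53, changed at E13.5 by -1.33 ± 0.13 (SE, adjusted p = 5.21e-07) and -0.72 ± 0.15 (SE, adjusted p = 0.00243). Cdkn1c, p57, and Cdkn1b, p27, were higher in stabilized libraries at E16.5, by 1.98 ± 0.21 (SE, adjusted p = 2.89e-07) and 0.81 ± 0.13 (SE, adjusted p = 4.55e-05). Trp53, which encodes p53, differed by -0.85 ± 0.15 (SE, adjusted p = 0.000108) at E16.5.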

How the data were processed

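RNA-seq was read from a deposited table of estimated counts per Ensembl gene for 18 libraries, whole numbers as deposited, made by the authors with Salmon 0.99.0 after Trimmomatic 0.39, FastQC 0.11.8 and MultiQC 1.9, with build mm10, per the submitters' processing notes, which also name DESeq2 (given as 3.15). The annotation release and the strand setting were not given in the sources used here. A second deposited table held the authors' normalized signal, the same counts divided by factors that differ between genes within a library, and it was used only for offsets in an alternative.

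Genotype and stage effects were fitted in edgeR 4.0.16 (R 4.3.3, limma 3.58.1) as 4 group means over all 18 libraries, with TMM factors, filterByExpr at a minimum count of 10, the robust quasi-likelihood test and Benjamini-Hochberg adjustment over 17269 genes at 0.05. Log2 CPM used a prior count of 2. The code was tested on simulated data. Alternatives were RLE and upper-quartile factors, DESeq2 1.42.0, the deposited offsets, no filter on low counts, only the libraries compared, a replicate block, each library left out in turn and a shorter promoter window. Another alternative, leaving out 2 libraries together, was chosen after seeing the data. Overlaps and positions came from GENCODE M21, and promoters from RefSeq. Figures were drawn with matplotlib.

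The members, the other gene lists and the tests were chosen with earlier results of these data known. Genes given with values in every library were up to 3 per role with the smallest adjusted p at E13.5, those whose call or direction differed from most members, and the extremes of each comparison. From each other list up to 3 genes per direction with the smallest adjusted p were named, beside a few regulators and inhibitors. Which litter each library came from was not stated in the labels, and p-values measure the spread between these pooled samples.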

Additional observations from a re-analysis of the deposited data

Results flagged for a closer look

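Among 180 sets of libraries of one group examined for a value far from its companions, 15 held one, where chance gives about 1 in 20. E13.5 stabilized library 2 was low for Ccnb1 at 41.97 CPM (68.2 to 73.0 in its companions), Ccnb2 at 17.4 (39.5 to 42.03), Cenpe at 78.8 (148 to 152) and Cenpf at 139.6 (231 to 247). E13.5 control library 4 was low for Ccnb1 at 13.46 CPM (22.9 to 24.6) and Cenpf at 70.4 (90.1 to 92.9). E13.5 control library 3 was high for Ccna2 at 36.99 CPM (21.8 to 24.1) and Nuf2 at 17.1 (10.6 to 10.9), and control library 1 for Incenp at 62.0 (38.7 to 42.1). At E16.5, stabilized library 3 was high for Kif4 at 79.8 CPM (52.3 to 58.8) and Ect2 at 72.5 (51.9 to 55.9), and control library 4 was low for Espl1 at 82.9 (106 to 112).

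The mean log2 level of the 43 mitotic genes minus that of the S-phase genes also stood apart in 3 libraries. It was -0.62 in E13.5 control library 4 (-0.24 to -0.18 in its companions), -0.33 in E13.5 stabilized library 2 (0.35 to 0.42) and 0.71 in E16.5 stabilized library 1 (0.55 to 0.59).

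The genotype effect differed between the stages by the interaction test in edgeR for 41 genes with the lower effect at E16.5 and for 1, Spc24, with the higher effect there.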

How the results depend on the processing

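The counts of mitotic genes called kept their directions under the alternatives run. Those higher at E13.5 numbered 34 to 42 beside 40, those lower at E16.5 30 to 39 beside 34, those with the lower effect at E16.5 in the interaction test 37 to 42 beside 41, and those rising in controls 41 to 42 beside 42. The count that rose over stage in stabilized embryos, 17, was 11 with upper-quartile factors, 10 with offsets from the deposited signal (8 of them among the 17), 10 to 16 when 1 library was left out (10 without E13.5 stabilized library 2), and 20 with RLE factors or DESeq2. With those offsets 2 genes, in place of 1, were called higher at E16.5. The same offsets turned the E16.5 differences of Cdc25c (0.065, adjusted p = 0.936), Spc25 (0.27, adjusted p = 0.561), Nusap1 (1.76, adjusted p = 0.0059) and Pttg1 (0.20, adjusted p = 0.718), and the interaction of Nusap1 (0.11, adjusted p = 0.95). The cause was not tested. Outside the 26 stage effects in stabilized embryos that did not pass, 3406 of 3514 values of single genes under alternatives kept direction and call, 88 lost and 15 gained the call, and 5 turned. Of 442 values of those 26, 400 kept both, 16 gained the call, in 6 genes, and 26 turned, in 8 genes. The median of all genes at E16.5, 0.10, was 0.14 with RLE factors and 0.20 with DESeq2. TTTGAA stood in 77.1% of the genes with a window against 11.2% of all windows when only 150 bases before the start were searched.

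With the replicate number as a block, 41 genes were higher at E13.5, 35 were lower and 1 higher at E16.5, 41 were lower and 1 higher in the interaction, and 9 rose over stage in stabilized embryos, beside 17. The numbers gave no clear sign of pairing: r of same-numbered deviations ran from -0.0995 to 0.17 over 17 pairs, above 0.1 in 3, and 3 matched their own number best. Such values cannot show whether same-numbered libraries shared a litter, which the labels do not state.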

Other observations

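Over all tested genes 9.58% were higher and 5.29% lower in stabilized libraries at E13.5, and 22.2% higher and 19.4% lower at E16.5. Of 17 genes of the anaphase-promoting complex, the ubiquitin ligase that ends mitosis, and its regulators, 2 were higher and 0 lower in stabilized libraries at E13.5 (edgeR, 0 lower also at an unadjusted p under 0.05), Ube2s, a chain-extending enzyme, by 0.83 ± 0.17 (SE, adjusted p = 0.0017), and Fbxo5, the inhibitor Emi1, by 0.77 ± 0.18 (SE, adjusted p = 0.00582). These E13.5 counts are small and lie near the shares over all tested genes, so they say little about the list. At E16.5 1 was higher, Anapc10, by 0.75 ± 0.20 (SE, adjusted p = 0.00451), and 8 were lower, among them the subunit genes Cdc23, -0.81 ± 0.096 (SE, adjusted p = 1.32e-06), and Anapc5, -0.49 ± 0.093 (SE, adjusted p = 0.000242), and Fzr1, which encodes the activator Cdh1, -0.65 ± 0.13 (SE, adjusted p = 0.000339).

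Of 12 genes of cohesin, the ring that holds sister chromatids together, 2 were higher and 1 lower at E13.5, counts too small and too near those shares to say anything of the list. Esco2, an S-phase acetyltransferase of cohesin, differed by 1.40 ± 0.26 (SE, adjusted p = 0.000712), Rad21 by 0.59 ± 0.12 (SE, adjusted p = 0.00215) and Esco1 by -0.59 ± 0.13 (SE, adjusted p = 0.00385). At E16.5 3 were higher, Esco1 by 0.76 ± 0.12 (SE, adjusted p = 3.81e-05), the loader gene Nipbl by 0.49 ± 0.09 (SE, adjusted p = 0.000199) and the release factor gene Wapl by 0.39 ± 0.10 (SE, adjusted p = 0.00418), and 4 were lower, among them Pds5b, -0.60 ± 0.11 (SE, adjusted p = 0.000216), Smc1a, -0.56 ± 0.16 (SE, adjusted p = 0.00991), and Stag1, -0.45 ± 0.14 (SE, adjusted p = 0.0108). Of 9 genes of the G1 phase, Mycn was higher at both stages, by 1.51 ± 0.20 (SE, adjusted p = 1.94e-05) and 1.38 ± 0.18 (SE, adjusted p = 3.48e-06). Ccnd1, cyclin D1, was lower at E16.5, -2.08 ± 0.20 (SE, adjusted p = 8.13e-08), as were its partner Cdk6, -0.9976 ± 0.12 (SE, adjusted p = 2.52e-06), and Myc, -2.25 ± 0.29 (SE, adjusted p = 6.15e-06), while Ccnd3 was higher, 0.91 ± 0.17 (SE, adjusted p = 0.000195).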
